A study of Oryctolagus cuniculus with 24 samples.

Results

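The transcripts of 3 CXC chemokines, CXCL8 (also called IL8), CXCL10 and CXCL11, and of the chemokine receptor CXCR4 were followed in rabbit peripheral blood mononuclear cells (PBMCs). These 4 genes were taken by symbol from the arrays, where they were covered by 18 of the 42089 probes, and they are 4 of 28873 genes measured. PBMCs, the lymphocytes and monocytes left after granulocytes and most red cells are removed on a density gradient, came from 4 female adults of the New Zealand White breed, here called rabbits 1, 2, 4 and 5. Cells of each rabbit were mock-stimulated, stimulated with lipopolysaccharide (LPS, 1 µg/mL), or stimulated with phorbol myristate acetate (PMA, 10 ng/mL) together with ionomycin (1 µg/mL), for 4 h (T4) or 24 h (T24). Each of the 6 groups thus held the same 4 rabbits, and the 24 RNA samples were hybridised one by one on 3 slides of 8 one-colour Agilent arrays. At each time the LPS and the PMA-Ionomycin cells were compared with the same 4 mock arrays, so these comparisons share their controls. The cultures were mixtures of cell types, so fewer cells of a type and less RNA per cell cannot be told apart in any of these values.

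CXC chemokines are small secreted proteins that direct leukocyte movement through receptors coupled to G proteins. CXCL8 attracts neutrophils through CXCR1 and CXCR2, and its gene is a classical target of NF-kappaB in monocytes. CXCL10 and CXCL11 are ligands of CXCR3 on activated T cells and NK cells, and their genes are typical interferon-induced genes. CXCR4 is the receptor of CXCL12 and is carried by most lymphocytes and monocytes, which it helps to home to and stay in bone marrow and lymphoid tissue. LPS is sensed by TLR4 with CD14, whereas PMA activates protein kinase C and ionomycin raises cytosolic calcium, which together mimic antigen receptor signalling in T cells.

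The probe sequences, all of 60 bases, decide what each value measures, so 1 or 2 are shown for each gene. Capitals mark the run of bases that all probes at the same site share or, for CXCL10, where no run is common to all 5 probes, the run shared with the adjacent probe, and positions are on the rabbit build oryCun2. CXCL8 was read by 7 probes at 4 sites on the minus strand of chromosome 15, of which 2 adjoining probes covered chr15:76369048-76369167 at one end and the other 5 lay between positions 76370124 and 76370953. Some of these positions span more than 60 bases, because the probe matches the genome in pieces. The 2 CXCL8 probes printed lie at chr15:76370625-76370953 (A_04_P004970) and chr15:76370125-76370632 (A_04_P004967).
A_04_P004970: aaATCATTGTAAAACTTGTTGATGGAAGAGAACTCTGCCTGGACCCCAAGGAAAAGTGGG
A_04_P004967: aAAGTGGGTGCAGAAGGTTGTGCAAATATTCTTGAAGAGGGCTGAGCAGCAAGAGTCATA

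CXCL10 was tiled by 5 overlapping probes on the plus strand of the same chromosome, and the first and the last of them, at chr15:74369722-74370009 and chr15:74370035-74370561, share no run longer than 6 bases.
A_04_P034321: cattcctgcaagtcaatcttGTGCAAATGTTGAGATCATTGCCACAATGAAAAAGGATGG
A_04_P034317: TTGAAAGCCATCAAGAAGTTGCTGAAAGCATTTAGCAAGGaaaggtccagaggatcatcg

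CXCL11 rested on a single probe, spotted 3 times on each array and without a genome position in the files. It was named through the list of genes that the submitters had added to an earlier custom design.
CUST_927_PI428255556: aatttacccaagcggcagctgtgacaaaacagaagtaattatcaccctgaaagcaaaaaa

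CXCR4 was read by 5 probes at 1 place, the minus strand of chr7:73686595-73686662, which share 52 bases and are therefore close to repeats of one measurement.
A_04_P059646: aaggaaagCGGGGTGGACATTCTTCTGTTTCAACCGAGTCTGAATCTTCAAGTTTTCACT

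Levels are given as log2 median signal minus the median of the array, so that a step of 1 is a doubling, and they compare arrays and not genes. Between 51.4% and 62.3% of the spots of an array were well above local background. The LPS T4 array of rabbit 4 had the fewest of these, and also the lowest median spot intensity of the 24 arrays. The markers of the expected cells were present, since all 11 monocyte markers and all 6 B cell markers found were well above background on every Mock T4 array, as were 8 of 10 T cell markers. The same held for 7 of 8 neutrophil markers and 5 of 6 platelet markers, and none of the 6 platelet markers was so on all Mock T24 arrays. CD3D, CD3E and CD3G, the defining T cell genes, could not be named on the arrays. The Mock T24 array of rabbit 5 stood apart from the other 3 of its group, with the lowest median correlation of the 24 arrays (0.970, against 0.977 to 0.992 for the others), and values without it are given where leaving it out changed a call of the 4 genes or a T24 call described here.

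CXCR4 was 13.3-fold lower than in mock cells after 24 h of PMA-Ionomycin, the largest of the changes against mock of the 4 genes on the main scale. In mock-stimulated cells the CXCR4 level was 6.0, 6.19, 5.75 and 6.62 at T4 and 5.75, 6.15, 6.05 and 6.25 at T24 in rabbits 1, 2, 4 and 5. LPS-stimulated cells gave 6.10, 6.28, 5.80 and 5.94 at T4 and 5.65, 6.06, 5.31 and 6.20 at T24. After PMA-Ionomycin the level was 5.68, 5.11, 6.25 and 5.7 at T4, and 2.57, 2.32, 2.05 and 2.32 at T24. Thus 20 arrays lay between 5.11 and 6.62, and the 4 PMA-Ionomycin T24 arrays lay far below all of them while still well above background.

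The fall at T24 was -3.73 on the log2 scale (SE 0.22, 95% interval -4.19 to -3.28, limma adjusted p = 6.1e-12), and it was seen in all 4 rabbits, from -3.18 in rabbit 1 to -4.00 in rabbit 4. Without the rabbit 5 array of Mock T24 it was -3.67 (adjusted p = 6.5e-11). Within the 3 slides it was -3.58, -3.43 and -3.96, and the 5 probes gave values between -3.68 and -3.79. Of the 4 genes, CXCR4 was the only one called in this comparison, in which 33.6% of all genes were called, and the only one whose groups did not overlap in the downward direction, as for 11% of all genes. At T4 the change was -0.45 (SE 0.22, interval -0.91 to 0.00, adjusted p = 0.17), with 3 rabbits lower and rabbit 4 higher by 0.51. It passed the threshold under quantile normalization (-0.74, adjusted p = 0.018) and without rabbit 4 (-0.77, adjusted p = 0.015). The T24 change exceeded the T4 change by -3.28 (SE 0.31, adjusted p = 3.6e-08).

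LPS left CXCR4 without a detectable change, at -0.11 (interval -0.56 to 0.35, adjusted p = 0.85) at T4 and -0.25 (interval -0.70 to 0.21, adjusted p = 0.82) at T24. At T4 rabbits 1, 2 and 4 were slightly higher than their mock cells and rabbit 5 was lower, and at T24 all 4 rabbits were lower, with differences of -0.09 in rabbits 1 and 2, -0.74 in rabbit 4 and -0.054 in rabbit 5. In the order of the 6 group levels, Mock T4, Mock T24, LPS T4, LPS T24 and PMA-Ionomycin T4 followed each other without a difference between neighbours that passed the test, and only the last step, from PMA-Ionomycin T4 to PMA-Ionomycin T24, did (3.37, adjusted p = 4.9e-11).

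**Figure D1:**
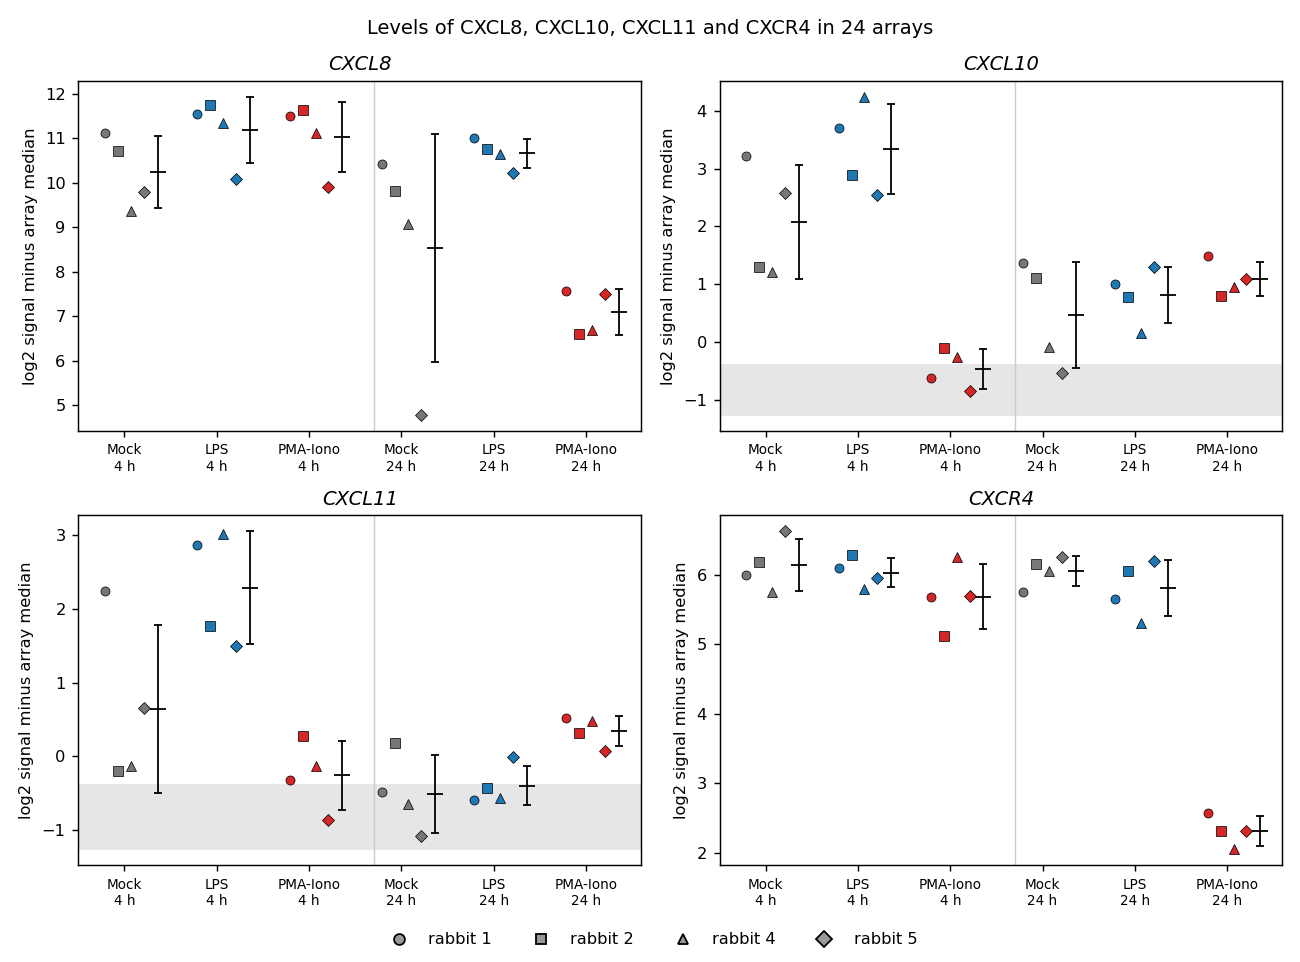
Level of each gene in the 24 arrays, as log2 signal minus the array median (y axis), by stimulation and time (x axis), with 1 symbol per rabbit and the mean ± SD of the 4 rabbits as a black bar. The grey band, drawn where an axis reaches it, spans the lowest signals called well above background, -1.26 to -0.39 over the arrays. CXCR4 lies between 2.05 and 2.57 after 24 h of PMA-Ionomycin and above 5.1 elsewhere, and CXCL8 of rabbit 5 at Mock T24 lies at 4.78, below all other arrays.

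Markers of monocytes moved in the same comparison as CXCR4, in which 33.6% of all genes were called. After 24 h of PMA-Ionomycin, 10 of the 11 monocyte markers found were lower and none was higher, with a median change of -2.81, and their mean level ranged from 1.76 to 2.18 against 4.10 to 4.71 in Mock T24. CD14, the LPS co-receptor, was lower than in Mock T24 by 3.27 (SE 0.33) but had a level of 5.48. Of the 11 markers, 8 were above background on all 4 arrays. Of the 6 B cell markers, 3 were lower (BANK1, CD22 and MS4A1) and BLK was higher, with a mean level of 2.82 to 3.22 against 3.02 to 4.64. Of the 10 T cell markers, CD4 and CD247 were lower and CD5 was higher, with a mean level of 0.23 to 0.29 against 0.21 to 0.48. The 3 calls among T cell markers are a share near that of all genes, and without the rabbit 5 array of Mock T24 CD247 (-0.46) alone was called and CD22 (-0.39) was not. Of 8 neutrophil markers 5 were lower and none higher, with a mean level of 1.41 to 1.92 against 3.16 to 4.4, and 6 were lower without that array. The NK cell marker found, PRF1, was higher by 0.96, 1 of 5 erythrocyte markers was lower, and no platelet marker was called. In mock cells 7 of the 11 monocyte markers rose from T4 to T24 and none fell (median 1.37, with 12.5% of all genes called). CD14 was at 7.38 in Mock T4 and 8.75 in Mock T24, and at 4.38 and 5.48 after PMA-Ionomycin. The study listed CD14 as not differentially expressed after PMA-Ionomycin, by array and by PCR. The part of these cell types in the CXCR4 change was not tested. At T4 of PMA-Ionomycin 5 of the 11 monocyte markers, CD14 among them, were lower and none was higher (median -0.71), where 22.8% of all genes were called. Of 6 platelet markers 5 were lower (median -1.29), and of 6 B cell markers 3 were lower and BLK was higher (median -1.22). Of 8 neutrophil markers 2 were lower, and so was PRF1. Of 10 T cell markers TCF7 was lower and CD28 higher, and no erythrocyte marker was called.

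Of 6623 genes compared, 3 followed the CXCR4 level most closely over the 24 arrays. These were HBP1 (Pearson r = 0.97), which encodes a transcriptional repressor, RLA-DR-ALPHA (r = 0.95), an MHC class II chain, and CD74 (r = 0.94), the invariant chain. The genes compared had a symbol, a value on every array, and a probe well above background on all 4 arrays of some group. All arrays share the same rabbits and treatments, and 4 arrays carry most of the spread, so these values are descriptive. RLA-DR-ALPHA went from 3.90 to 5.73 in Mock T24 to between -0.25 and 0.31 after PMA-Ionomycin, a change of -4.62 (SE 0.38, adjusted p = 8.8e-10). HBP1 fell by 2.13 (SE 0.15, adjusted p = 1.4e-10) at T24, and it was called at T4 too, with -0.53 (SE 0.15, adjusted p = 0.013).

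Among the other CXC receptors found on the arrays, ACKR3 and CXCR5 were higher at T4 of PMA-Ionomycin, and neither was called at T24. ACKR3, CXCR5 and CXCR2 rested on 1 probe each, as did the ligands CXCL12 and CXCL16 described below. ACKR3, the atypical receptor that scavenges CXCL12 and also binds CXCL11, had levels of 1.24, 0.75, -0.06 and -0.05 in Mock T4 and of 3.51, 2.92, 3.61 and 1.83 in PMA-Ionomycin T4. These groups did not overlap, and the change was 2.50 (SE 0.38, adjusted p = 2.3e-05), a 5.64-fold higher level. At T24 ACKR3 lay between -1.06 and -0.21 in Mock and between -1.12 and -0.32 in PMA-Ionomycin, with a difference of -0.14 (interval -0.92 to 0.65). CXCR5, the CXCL13 receptor of follicular B and T cells, gave 1.95, 2.72, 2.18 and 2.86 in Mock T4 and 3.56, 3.12, 3.75 and 3.15 in PMA-Ionomycin T4, a 1.95-fold difference (0.96, SE 0.29, adjusted p = 0.017). CXCR2, a CXCL8 receptor of neutrophils, stayed between 0.86 and 2.56 on all arrays and was called in none of the comparisons. The effect of PMA-Ionomycin differed between the times for ACKR3 (-2.63, SE 0.54, adjusted p = 6.9e-04) and CXCR5 (-1.21, SE 0.41, adjusted p = 0.037), as it did for CXCR4. Counting CXCR4, 2 of the 4 CXC receptors were higher at T4 and 1 was lower at T24, with medians of 0.30 and -0.23 beside 0.05 and 0.03 over all genes, of which 22.8% and 33.6% were called.

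**Figure D2:**
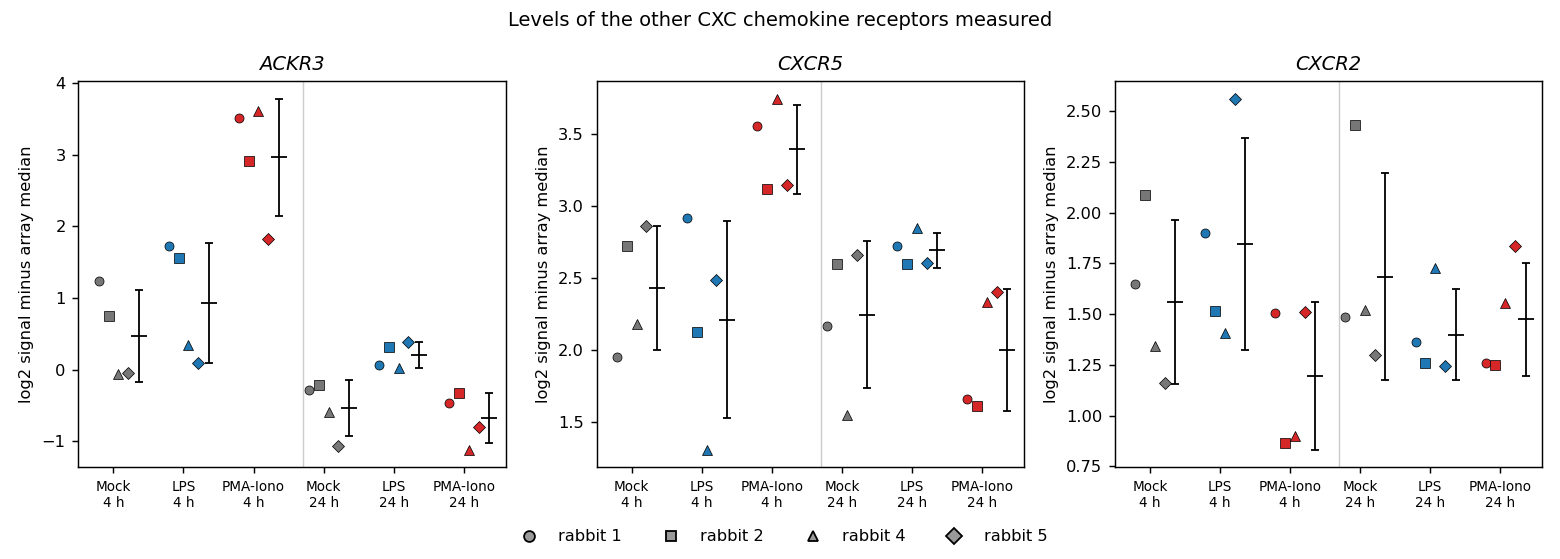
Levels of ACKR3, CXCR5 and CXCR2 in the 24 arrays (log2 signal minus the array median), drawn with 1 symbol per rabbit and the mean ± SD of 4 rabbits. The 4 ACKR3 values of PMA-Ionomycin T4, 1.83 to 3.61, lie above every other array, and CXCR2 shows no group apart.

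The ligand of CXCR4 was scarcely measurable. CXCL12 lay between -0.80 and -0.13 on every array, within or close to the range of the faintest spots above background, and no change was called. CXCL13 was above background on no array of Mock T4 or LPS T4. CXCL16, a membrane-bound ligand of CXCR6, lay between 1.35 and 4.56 with groups that overlapped, and none of its changes against mock was called. Its change with LPS at T24 was -0.45 (SE 0.54, adjusted p = 0.91), and -0.91 (adjusted p = 0.46) without the rabbit 5 mock array. With the 3 chemokines described here, these make up the 6 of 16 listed CXC ligands that could be named on the arrays. Of these 6 ligands, CXCL10 alone was called, and only in PMA-Ionomycin T4 among the 4 comparisons with mock. Over all genes 22.8% were called there, so that 1 of 6 is no more than the share of all genes, and 33.6% (PMA-Ionomycin T24), 1.03% (LPS T4) and 1.22% (LPS T24) in the others.

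CXCL10 was 5.82-fold lower after 4 h of PMA-Ionomycin on the main scale, on which signals level off near the background. Its Mock T4 levels were 3.22, 1.30, 1.21 and 2.58 in rabbits 1, 2, 4 and 5, against -0.63, -0.11, -0.26 and -0.85 after PMA-Ionomycin, and the groups did not overlap. All stimulated arrays lay at or near background, with at least 1 probe well above it in 3 of the 4 rabbits and none in rabbit 5. The change was -2.54 (SE 0.44, 95% interval -3.46 to -1.63, adjusted p = 0.00011) and ranged from -3.85 in rabbit 1 to -1.41 in rabbit 2, with within-slide values of -2.76, -3.07 and -1.93. On the background-subtracted signal it was -4.50 (adjusted p = 2.1e-05). CXCL10 was the 1 gene of the 4 called in this comparison, where 22.8% of all genes were called, and the 1 of 4 whose groups did not overlap in the downward direction, beside 9.21% of all genes.

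At T24 no such difference was detected. PMA-Ionomycin T24 gave 1.49, 0.80, 0.96 and 1.08, and Mock T24 gave 1.36, 1.10, -0.09 and -0.53, so that the change was 0.62 (interval -0.29 to 1.53, adjusted p = 0.35), and 0.29 (adjusted p = 0.76) without the rabbit 5 mock array. The T24 change differed from the T4 change by 3.16 (SE 0.62, adjusted p = 5.0e-04), in the same direction in all 4 rabbits. PMA-Ionomycin cells rose by 1.54 between the times (SE 0.44, adjusted p = 0.0081), while mock cells fell by 1.62 (SE 0.44, adjusted p = 0.015). The fall in mock cells was the 1 call of 4 in that comparison, beside 12.5% of all genes, and ranged from -3.11 in rabbit 5 to -0.20 in rabbit 2. It was not called without rabbit 1 (-1.54, adjusted p = 0.056), without rabbit 5 (-1.12, adjusted p = 0.16) or without the rabbit 5 array of Mock T24 (-1.29, adjusted p = 0.063).

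LPS gave higher CXCL10 levels in 3 of the 4 rabbits at T4, without passing the test. The LPS T4 levels of 3.69, 2.89, 4.24 and 2.54 overlapped with Mock T4, and the differences by rabbit were 0.47, 1.58, 3.03 and -0.04. The mean difference of 1.26 (SE 0.44, interval 0.35 to 2.17) had an unadjusted p of 0.0091 and an adjusted p of 0.17. At T24, with 1.01, 0.79, 0.15 and 1.30, LPS cells did not differ detectably from mock cells (0.35, interval -0.56 to 1.27, adjusted p = 0.92, and 0.020 without the rabbit 5 mock array). From LPS T4 to LPS T24 the level fell by 2.53 (SE 0.44, adjusted p = 1.3e-04). LPS T4 was thus the highest and PMA-Ionomycin T4 the lowest of the 6 groups, with Mock T4, PMA-Ionomycin T24, LPS T24 and Mock T24 between them in that order, and no neighbouring pair in this order passed the test.

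CXCL11 was highest in LPS T4, followed by Mock T4, PMA-Ionomycin T24, PMA-Ionomycin T4, LPS T24 and Mock T24, and no neighbouring pair in this order passed the test. In PMA-Ionomycin T4, LPS T24 and Mock T24 only 3, 2 and 1 of the 4 arrays were well above background. The order of these groups is thus not resolved. Mock T4 gave 2.25, -0.20, -0.13 and 0.65, and LPS T4 gave 2.87, 1.77, 3.01 and 1.5. The highest mock value, that of rabbit 1, lay among the LPS values, but LPS was above mock within every rabbit, by 0.62, 1.97, 3.14 and 0.85. The mean difference was 1.65 (SE 0.41, interval 0.79 to 2.50), a 3.13-fold higher level, with an unadjusted p of 6.3e-04 and an adjusted p of 0.054. With the rabbit as a block, which compares cells of the same animal, the adjusted p was 0.024, and without rabbit 1 the difference was 1.99 (adjusted p = 0.038). Without the rabbit 5 array of Mock T24, which enters through the shared spread, the adjusted p was 0.047. Within the slides it was 1.12, 1.95 and 2.39. No member was called for LPS at T4 by limma (0 of 4, with 2 of 4 at an unadjusted p under 0.05), beside 1.03% of all genes.

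At T24 CXCL11 was close to background in both mock and LPS cells. Mock T24 gave -0.48, 0.18, -0.64 and -1.08, of which 1 array was well above background, and LPS T24 gave -0.59, -0.42, -0.56 and -0.01, of which 2 were. The difference was 0.11 (interval -0.75 to 0.97, adjusted p = 0.99), and -0.082 without the rabbit 5 mock array. Between LPS T4 and LPS T24 the level fell by 2.68 (SE 0.41, adjusted p = 3.4e-05). The change of the LPS effect with time, -1.53 (SE 0.59), had an unadjusted p of 0.016 and an adjusted p of 0.18. None of the 4 genes was called for this change of the LPS effect (0 of 4, with 1 of 4 at an unadjusted p under 0.05), beside 1.94% of all genes.

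PMA-Ionomycin left CXCL11 at -0.32, 0.27, -0.12 and -0.86 at T4 and at 0.53, 0.31, 0.48 and 0.07 at T24. The T4 values overlapped with mock, with differences from -2.57 in rabbit 1 to 0.47 in rabbit 2 (mean -0.90, SE 0.41, adjusted p = 0.14). At T24 all 4 rabbits were above their own mock cells, by 0.13 to 1.15 (mean 0.85, SE 0.41, adjusted p = 0.13). With Mock T24 well above background on 1 of 4 arrays, the size of this change is poorly fixed, and on the background-subtracted signal it was 1.86 (adjusted p = 0.077). The 2 effects differed by 1.75 (SE 0.59, adjusted p = 0.032), and this was not called without rabbit 1 (1.15, adjusted p = 0.21), without rabbit 4 (1.97, adjusted p = 0.070), without rabbit 5 (1.45, adjusted p = 0.15) or without the rabbit 5 array of Mock T24 alone (1.56, adjusted p = 0.069). On the background-subtracted signal it was 3.82 (adjusted p = 0.017). With CXCL10 and CXCR4, CXCL11 made 3 of 4 genes called for the change of the PMA-Ionomycin effect with time, beside 22.5% of all genes.

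**Figure D3:**
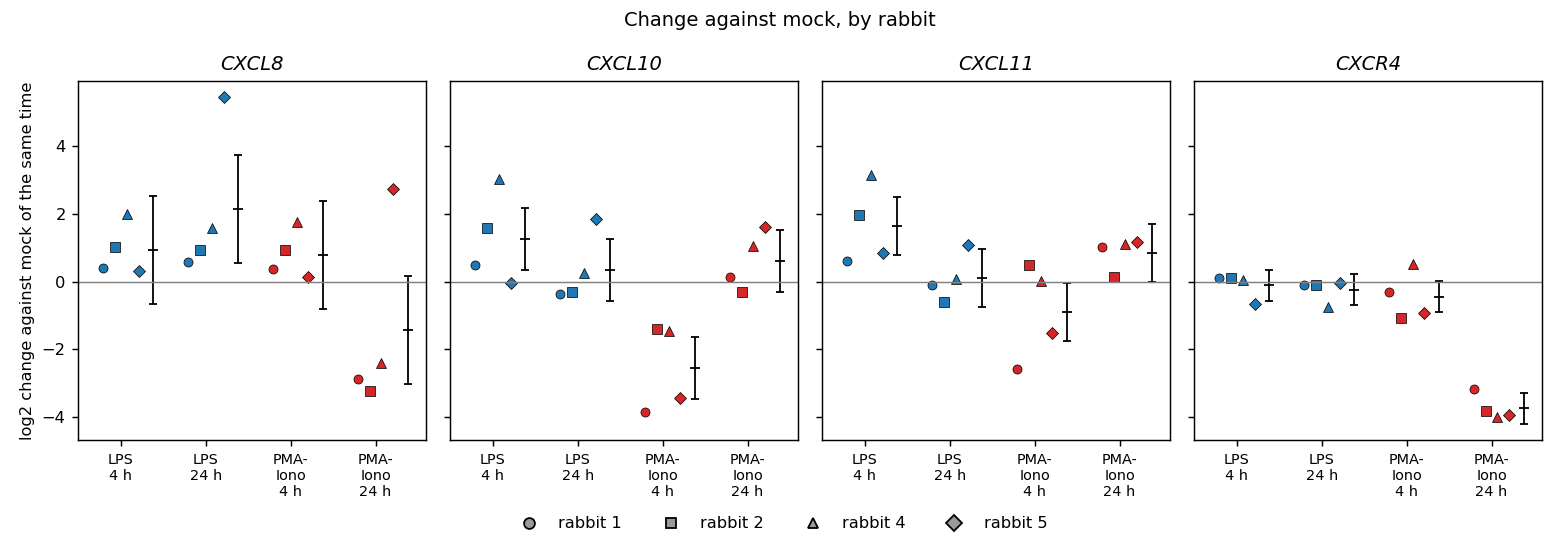
Difference from the mock-stimulated cells of the same rabbit and time (y axis, log2), by stimulation and time (x axis), with 1 symbol per rabbit and the limma estimate with its 95% interval in black. CXCR4 falls by 3.18 to 4.00 in all 4 rabbits after 24 h of PMA-Ionomycin, CXCL10 falls in all 4 after 4 h, and rabbit 5 departs from the others in CXCL8 at T24.

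CXCL10 and CXCL11 varied together over the 24 arrays (Pearson r = 0.89), and CXCL10 was the first of the 6623 genes compared by likeness to CXCL11. After it came MARCHF5 (r = 0.87), a mitochondrial ubiquitin ligase, and OSMR (r = 0.87), a subunit of the oncostatin M receptor. The genes most like CXCL10 were RIGI (r = 0.93), a sensor of viral RNA, IFIT2 (r = 0.92), an interferon-induced antiviral protein, and USP18 (r = 0.91), which removes ISG15 from proteins. RIGI gave 4.64, 3.1, 3.01 and 3.64 in Mock T4 and 1.96, 1.08, 1.70 and 0.06 in PMA-Ionomycin T4, a change of -2.40 (SE 0.42, adjusted p = 1.1e-04). For CXCL8 the values were r = 0.30 for CXCL10 and 0.34 for CXCL11.

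After 4 h of PMA-Ionomycin, 17 of the 29 measured genes of interferon induction and response were lower, 3 were higher and 9 were not called, in a comparison where 22.8% of all genes were called, with a median of -0.86 beside 0.05 over all genes. CALHM6 fell by 5.52 (SE 0.36), IFIH1, another sensor of viral RNA, by 3.0 (SE 0.42), USP18 by 2.97 (SE 0.43) and IFIT3 by 2.61 (SE 0.44), each in all 4 rabbits. The 3 higher genes were IFNG, the gene of interferon gamma itself (1.19, SE 0.23), IRF1 (1.48, SE 0.28), a transcription factor downstream of it, and IRF8 (1.48, SE 0.29). In the cells with the lower CXCL10 level, the IFNG level was thus higher, at 3.62, 3.93, 4.32 and 3.12 against 2.67, 2.63, 2.67 and 2.26 in Mock T4. At T24 IFNG remained higher (1.26, SE 0.23, adjusted p = 1.3e-04). The study reported larger IFNG increases at both times on its arrays, and larger still by PCR. The sizes given here may thus be too small. The receptor genes IFNGR2, IFNAR2 and IFNGR1 were lower at T24 by 3.7, 3.26 and 2.59 on the log2 scale. In all, 5 genes of the list were higher and 10 lower at T24 (4 and 12 without the rabbit 5 mock array), with a median of -0.11 beside 0.03 over all genes, of which 33.6% were called.

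With LPS 3 calls were made among these 29 genes. At T4 IFNGR1 (-1.69, SE 0.37) and IFNGR2 (-1.10, SE 0.25) were the 2 of 29 called, both lower, and at T24 IRF5 was lower (-1.17, SE 0.25) and no other gene was called. The median of the list was -0.02 at T4 and 0.22 at T24, beside 0.06 and -0.03 over all genes, of which 1.03% and 1.22% were called.

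CXCL8 was well above background in every culture, mock included. Its Mock T4 levels were 11.13, 10.72, 9.36 and 9.78, with 11.54, 11.75, 11.36 and 10.09 after LPS and 11.49, 11.64, 11.12 and 9.90 after PMA-Ionomycin. Each rabbit was above its own mock cells with both stimuli, by 0.31 to 1.99 with LPS and by 0.12 to 1.76 with PMA-Ionomycin, but the groups overlapped. Neither mean difference passed the test, at 0.94 (SE 0.77, interval -0.65 to 2.53, adjusted p = 0.62) for LPS and 0.79 (SE 0.77, interval -0.80 to 2.38, adjusted p = 0.61) for PMA-Ionomycin.

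At T24 one mock array decided the values of CXCL8. Mock T24 gave 10.43, 9.83 and 9.08 in rabbits 1, 2 and 4, and 4.78 in rabbit 5. LPS T24 gave 11.0, 10.77, 10.66 and 10.22, and PMA-Ionomycin T24 gave 7.57, 6.60, 6.69 and 7.51. LPS cells were above mock cells in every rabbit, by 0.57, 0.94, 1.58 and 5.43, with a mean of 2.13 (SE 0.77, unadjusted p = 0.011, adjusted p = 0.24) that dropped to 0.88 (adjusted p = 0.39) without the rabbit 5 mock array. CXCL8 was the 1 of 4 genes at an unadjusted p under 0.05 for LPS at T24, where limma called 0 of 4 beside 1.22% of all genes.

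PMA-Ionomycin T24 lay below LPS T24 without overlap (-3.57, SE 0.77, adjusted p = 5.7e-04), and below PMA-Ionomycin T4 (-3.95, SE 0.77, adjusted p = 2.3e-04). Against Mock T24 the change was -1.44 (SE 0.77, interval -3.03 to 0.15, adjusted p = 0.18), with -2.86, -3.23 and -2.39 in rabbits 1, 2 and 4 and 2.73 in rabbit 5. Without the rabbit 5 mock array it was -2.69 (adjusted p = 5.4e-05), and without rabbit 5 altogether -2.83 (adjusted p = 1.1e-05). Quantile normalization gave -2.09 (adjusted p = 0.041). Within the slides the change was 0.63 on the slide with the rabbit 5 mock array and -3.83 and -2.73 on the other two. The change of the PMA-Ionomycin effect with time was -2.23 (SE 1.09, adjusted p = 0.17), and -3.48 (adjusted p = 2.0e-04) without that array. In the order LPS T4, PMA-Ionomycin T4, LPS T24, Mock T4, Mock T24 and PMA-Ionomycin T24, no neighbouring pair of groups passed the test. The pair of Mock T4 and Mock T24 had an unadjusted p of 0.036, with a fall of -1.72 (SE 0.77, adjusted p = 0.18) seen in all 4 rabbits, from -0.29 in rabbit 4 to -5.00 in rabbit 5, and -0.47 (adjusted p = 0.65) without the rabbit 5 mock array.

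The 7 CXCL8 probes moved in the same direction, by different amounts. The 2 adjoining probes at the low end of the coordinates, A_04_P000626 and A_04_P000627, changed by -0.77 and -0.83 after 24 h of PMA-Ionomycin against mock, whereas the other 5, among them both printed above, changed by -1.67 to -1.72, and the difference between sites was not tested. Without the rabbit 5 mock array the first pair was at -2.04 and -2.08 and the other 5 at -2.96 to -2.92. In all 7 the rabbit 5 array gave Mock T24 the widest spread of the 6 groups.

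**Figure D4:**
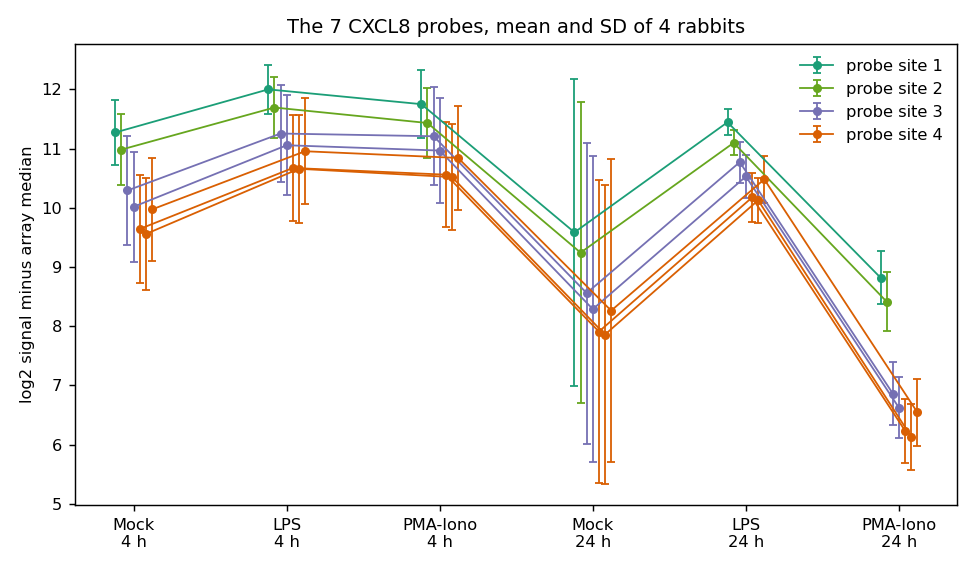
Mean ± SD over 4 rabbits of each of the 7 CXCL8 probes (y axis, log2 signal minus the array median) in the 6 groups (x axis), coloured by site, where sites 1 and 2 are the 2 adjoining probes at the low end and sites 3 and 4 hold the other 5. Every probe has its lowest mean in PMA-Ionomycin T24 and its widest spread in Mock T24, and levels compare groups within a probe, not probes.

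The genes most like CXCL8 over the 24 arrays were IL1A (r = 0.96), an interleukin-1 cytokine, NFKBIA (r = 0.93), the inhibitor that NF-kappaB induces of itself, and IER3 (r = 0.91), an early response gene. On the Mock T24 array of rabbit 5 these genes were low too, with IL1A at 0.63 against 6.11, 5.27 and 3.66 in rabbits 1, 2 and 4, and NFKBIA at 7.88 against 10.08, 10.17 and 9.45. NFKBIA was lower after 24 h of PMA-Ionomycin in all 4 rabbits (-1.51, SE 0.40, adjusted p = 0.0039). IL1A was not called in that comparison (-1.42, adjusted p = 0.20), and was at -2.52 (adjusted p = 0.0019) without the rabbit 5 mock array. CXCL8 and CXCR4 had r = 0.60, both being lowest in PMA-Ionomycin T24 but for the single mock array.

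Of 28 measured genes of Toll-like receptor and NF-kappaB signalling, 2 were called for LPS at T4, beside 1.03% of all genes. These were CD14 (-1.55, SE 0.33) and the adaptor gene MYD88 (-1.19, SE 0.23), both lower. In the same comparison 3 of the 11 monocyte markers were lower, CD14, CSF1R and TYROBP, and none was higher (median -0.76). At T24 of LPS 3 were called beside 1.22% of all genes, all higher, namely IL6 (4.73, SE 0.72), IL1B (4.16, SE 0.77) and IL1A (3.16, SE 0.79). Without the rabbit 5 mock array, which was the lowest of its group in all of them, IL6 was at 4.02, IL1B at 3.19 and IL1A, no longer called, at 2.06 (adjusted p = 0.091). TNF was at 6.49, 6.08, 4.53 and 3.50 in Mock T24 and at 8.46, 7.60, 7.31 and 7.22 in LPS T24. These groups did not overlap, but the change narrowly missed the threshold (2.50, SE 0.64, adjusted p = 0.054). Without the rabbit 5 mock array the TNF change was 1.95 (adjusted p = 0.13). TLR4 was called in none of the comparisons with mock. PMA-Ionomycin at T4 raised 11 of the 28 and lowered CD14, with IL6 (2.42, SE 0.72), FOS (1.81, SE 0.22) and FOSL1 (1.63, SE 0.19), AP-1 subunits, among them, and a median of 0.40 beside 0.05 over all genes, of which 22.8% were called. At T24 of PMA-Ionomycin 6 were higher and 9 lower (4 and 11 without the rabbit 5 mock array), beside 33.6% of all genes called, with a median of -0.17. IL1B was lower (-3.40, SE 0.77), with rabbit 5 again the exception, and TNF was higher (2.59, SE 0.64). IL6 was higher too (2.16, SE 0.72), but not called without that array (1.45, adjusted p = 0.12).

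Genes that act with CXCR4 went both ways after PMA-Ionomycin. At T4, RGS2 and RGS1, which shorten G protein signals, were higher by 4.72 (SE 0.37) and 1.17 (SE 0.26), and 4 of the 17 measured genes were lower, including the small GTPase gene RAC2 (-2.26, SE 0.27) and the receptor kinase gene GRK6 (-0.82, SE 0.25). At T24, 3 were higher and 6 lower. CD74, which with CXCR4 binds the cytokine MIF, fell by 4.69 (SE 0.46), while MIF itself was higher by 1.82 (SE 0.24), RGS2 by 1.62 (SE 0.37), and the kinase gene PTK2B was lower (-1.22, SE 0.20). The medians of these 17 genes were -0.05 and -0.01, beside 0.05 and 0.03 over all genes, of which 22.8% and 33.6% were called. LPS gave no call among them at either time by limma, where 4 (T4) and 6 (T24) of the 17 genes had an unadjusted p under 0.05, and 1.03% and 1.22% of all genes were called.

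Other receptors of leukocyte homing were mostly lower where they were called. At T4 of PMA-Ionomycin 4 of 11 were lower, among them the integrin genes ITGB7 (-1.74, SE 0.35) and ITGA4 (-1.12, SE 0.24) and the chemokine receptor gene CCR6 (-1.03, SE 0.17), and CCR7, the receptor for entry into lymph nodes, was higher (1.37, SE 0.22). At T24 4 were lower and none higher. ITGB7 was at -2.75 (SE 0.35), ITGB2 at -1.52 (SE 0.25), CCR6 at -1.26 (SE 0.17) and ITGAL at -1.09 (SE 0.18), beside the -3.73 of CXCR4. CCR6 went from 0.70 in Mock T24 to -0.55 and ITGAL from 1.17 to 0.08. Both started too near background to show a fall as large as that of CXCR4. The medians were -0.57 and -0.17, and 22.8% and 33.6% of all genes were called in these comparisons, so that the T24 count is near the share of all genes. After LPS 1 of the 11, ITGB2, was lower at T4 (-1.40, SE 0.25), and none was called at T24 by limma (2 at an unadjusted p under 0.05), beside 1.03% and 1.22% of all genes.

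**Figure D5:**
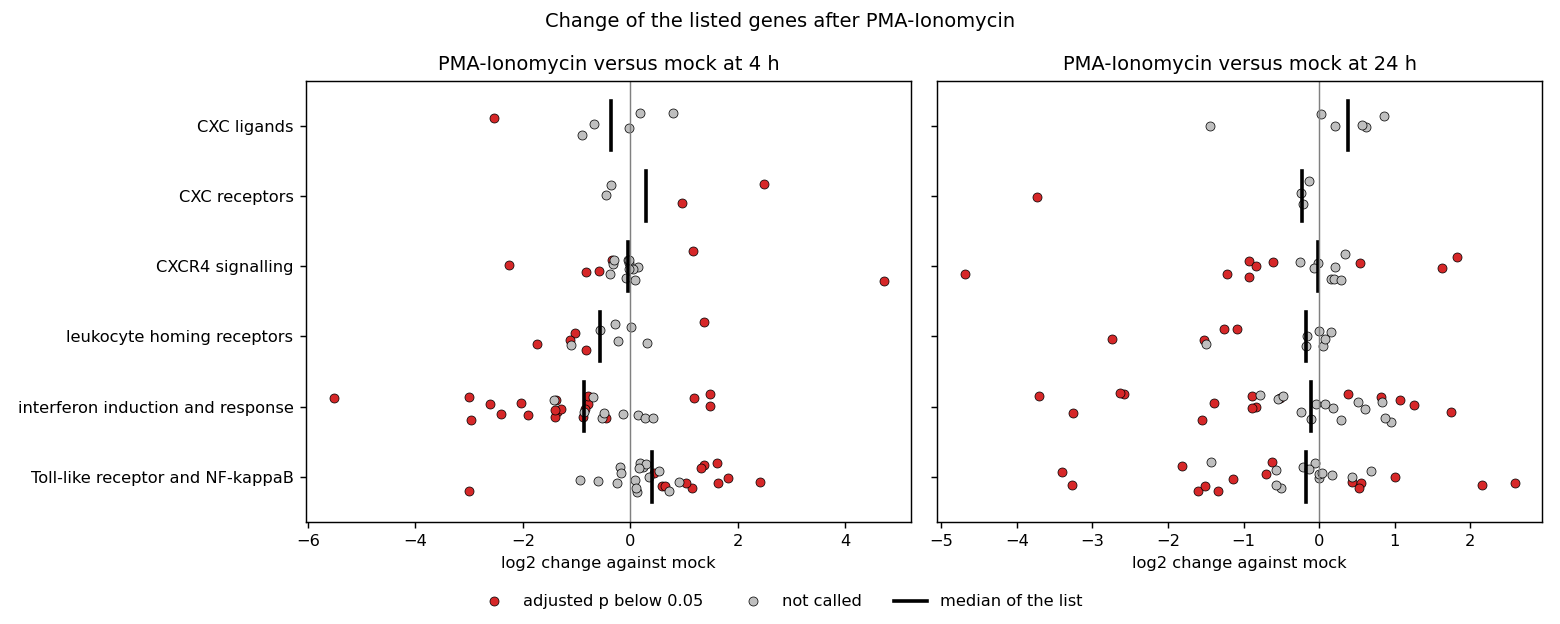
Change against mock (x axis, log2) of each measured gene of 6 lists (y axis) after 4 h (left) and 24 h (right) of PMA-Ionomycin, with genes at an adjusted p below 0.05 in red, others in grey, and the median of each list as a black line. At 4 h the interferon list has a median of -0.86, and CXCL10 is the red point among the ligands, while at 24 h CXCR4 is the red point among the receptors at -3.73.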

How the data were processed

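The authors scanned 24 one-colour arrays with Agilent Feature Extraction (10.7.3.1, per the file headers) and deposited, per array, spot intensity and flag columns, and a table of log2 values. On single-spot probes the deposited log2 table equals log2 median intensity minus a constant for each array. The study's methods name a median normalization, but column medians lie between -1.11 and -0.81 and column means between -0.05 and 0.02, so the constant stays unknown. Here log2 median intensity was centred on each array's median over spots that are no controls, spots flagged as outliers were left out, spots were averaged per probe and probes per gene. Of 42089 probes, 21823 kept an identifier and the others were named by the file's gene name, RefSeq accession, description, gene number or the submitters' list of added genes. limma 3.58.1 (lmFit and eBayes, R 4.3.3) was fitted to 6 group means over all 24 arrays without an animal term, as in the study's methods, with Benjamini-Hochberg adjustment over 28873 genes and a threshold of 0.05. The number of arrays limits precision. No arrays were identical, and no member spot was saturated. Rabbit numbers name animals, so samples are paired: deviations from group means had a median correlation of 0.23 within and -0.07 between rabbits. On simulated data with 200 changed genes (log2 change of 1.5 or 2) over 28759 genes, 88% to 97% were recovered per comparison. Of the calls, 4.28% to 6.97% were false. Smaller changes were not simulated. Planned protein and promoter features of the members were not analysed here. The members and lists were chosen with earlier results of these data known. Named genes were the members, all CXC ligands and receptors found, 8 genes fixed by name (not all are reported here), the 4 largest called changes per comparison of each other list and, by correlation, 3 genes like each member. Other genes of a list are named where few were called, after their values were seen.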

Additional observations from a re-analysis of the deposited data

Results flagged for a closer look

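The effect of PMA-Ionomycin differed between T24 and T4, by the interaction term, for 3 of the 4 genes, beside 22.5% of all genes. For CXCL10 the change against mock was higher at T24 than at T4 by 3.16 (SE 0.62, adjusted p = 5.0e-04), going from -2.54 to 0.62. For CXCL11 it was higher by 1.75 (SE 0.59, adjusted p = 0.032), going from -0.90 to 0.85, neither of them called. The call of 1.75 was lost when rabbit 1, 4 or 5 was left out. Between the times CXCL11 changed by 0.60 in PMA-Ionomycin cells (limma adjusted p = 0.28) and by -1.15 in mock cells (adjusted p = 0.077). For CXCR4 the change was lower at T24 by -3.28 (SE 0.31, adjusted p = 3.6e-08), going from -0.45 to -3.73. None of the 24 sets of 4 levels held a value far enough from the other 3 to pass Dixon's test, also not CXCL8 in Mock T24.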

How the results depend on the processing

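The fall of CXCR4 at T24 of PMA-Ionomycin (-4.19 to -3.65) and of CXCL10 at T4 (-4.50 to -2.10), and the changes of both effects with time, kept their direction and call in all 19 settings tried, and no reading from a single probe changed a call. Pairing by rabbit (rabbit as a block) brought CXCL11 for LPS at T4 past the threshold (1.65) and changed no other call of the 4 genes. It gave 1232, 748 and 1658 genes called for LPS at T4 (297 without it), LPS at T24 (352) and the change of the LPS effect with time (561). The same 3 comparisons gave 1032, 935 and 2172 genes with array weights. With array weights CXCL8 was called for PMA-Ionomycin at T24 (-2.15) and for the change of that effect (-2.97), CXCL10 and CXCL11 for LPS at T4 (1.49 and 1.88) and CXCL11 for the change of the LPS effect (-1.92), while CXCL10 in mock cells over time was not (-1.06). Quantile normalization, without and with normexp, brought CXCL8 for PMA-Ionomycin at T24 (-2.09 and -2.09) and CXCR4 at T4 (-0.74 and -0.74) past the threshold and lost CXCL11 for the change of the PMA-Ionomycin effect (1.67 and 1.35), as did the slide as a block (1.70) and a required fold change of 2 (1.75). CXCL10 in mock cells over time (-1.62) was lost with a required fold change of 2 and with only the arrays of the comparison. The latter brought CXCL11 for PMA-Ionomycin at T24 past the threshold (0.85), as leaving out dim probes did for LPS at T4 (1.65). The processed signal did so for CXCL11 in mock cells over time (-2.44), as did leaving out rabbit 2 (-1.66). Signs turned for CXCR4 with LPS at T4 (0.14 on the processed signal, 0.10 with array weights) and CXCL11 with LPS at T24 (-0.039 with array weights), all far from the threshold. Leaving out 1 rabbit, or 1 of 3 arrays chosen after the data were seen (Mock T24 rabbit 5, PMA-Ionomycin T4 rabbit 2, LPS T4 rabbit 4), gave the following ranges. CXCL8 ranged from -2.83 to -0.84 for PMA-Ionomycin at T24, -3.84 to -1.59 for the change of that effect and -0.12 to 1.73 for the change of the LPS effect. For values that stayed uncalled, CXCL8 ranged from 0.58 to 1.15 (LPS, T4), 0.88 to 2.65 (LPS, T24), 0.47 to 1.02 (PMA-Ionomycin, T4) and -2.20 to -0.47 (mock over time), CXCL10 from 0.67 to 1.69 (LPS, T4), 0.29 to 0.93 (PMA-Ionomycin, T24) and -1.84 to -0.29 (change of the LPS effect), CXCL11 from -1.36 to -0.34 (PMA-Ionomycin, T4) and -2.12 to -1.02 (change of the LPS effect), and CXCR4 from -0.31 to -0.079 (LPS, T24). CXCL10 ranged from -0.14 to 0.59 for LPS at T24 and -2.09 to -1.12 in mock cells over time. CXCL11 ranged from 1.15 to 1.99 for LPS at T4 (called without rabbit 1, without Mock T24 rabbit 5 and without PMA-Ionomycin T4 rabbit 2), -0.21 to 0.35 for LPS at T24, -1.66 to -0.62 in mock cells over time and 1.15 to 2.45 for the change of the PMA-Ionomycin effect. CXCR4 ranged from -0.18 to 0.083 for LPS at T4, -0.77 to -0.25 for PMA-Ionomycin at T4, -0.22 to 0.0062 in mock cells over time and -0.39 to 0.081 for the change of the LPS effect. The genes called ranged over 0 to 536, 85 to 610 and 7 to 1211 for LPS at T4, LPS at T24 and the change of the LPS effect, and over 2269 to 3758 in mock cells over time. For LPS at T4 there were 114 calls with quantile normalization, 105 with normexp, 8 on the processed signal, 71 on the deposited table, 114 with a trended robust eBayes, and 0 both with only the arrays of the comparison and with a required fold change of 2. For LPS at T24 there were 47, 29 and 724 calls with only those arrays, a required fold change and single probes. The change of the LPS effect gave 176 on the processed signal, and 218, 0 and 1034 in these 3 settings. A required fold change of 2 gave 695, 1926, 277 and 1085, and single probes 10005 for PMA-Ionomycin at T4, 5799 in mock cells and 9951 for the change of the PMA-Ionomycin effect, where the first 4 numbers are PMA-Ionomycin at T4, at T24, mock cells over time and the change of the effect. On the processed signal the median change over all genes was 0.22 with LPS (T4) and -0.26 with PMA-Ionomycin (T24), against 0.06 and 0.03. Signal over background limits CXCL11, which was not well above it on all arrays in 3 of the 6 groups. Where not stated, the cause of these differences was not tested.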

Other observations

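The low CXCL8 value of rabbit 5 in Mock T24 came with low values of other inflammatory genes on the same array. IL1B was 2.54 there against 8.16, 6.82 and 4.26 in rabbits 1, 2 and 4, IL6 was 0.29 against 4.09, 4.13 and 1.17, and TNF was 3.50 against 6.49, 6.08 and 4.53. CD14 on the same array was 7.93 against 9.20, 8.57 and 9.28, and CXCR4 was 6.25 against 5.75, 6.15 and 6.05. In Mock T4 cells of the same rabbit IL1B was 9.52 and CXCL8 9.78, within the range of the other rabbits.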
